A study of Mus musculus with 25 samples.

Results

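The genes described here encode the transporters and enzymes of glycolysis, the enzymes that decide the fate of pyruvate, 3 regulators of the pathway and 4 enzymes of the pentose phosphate pathway. They are 32 named genes among 48795 genes in a table of normalised read counts, taken by their symbols in both genotypes and at every time, and all 32 had a mean of at least 10 over the libraries and were tested. RNA was sequenced from double-negative (DN) 3 and DN4 thymocytes, sorted as Thy1.2+CD44- cells from the thymus of mice aged 7 to 8 weeks. Every mouse carried the CD2Cre transgene, which drives Cre recombinase in lymphoid cells, and lacked Rag1. Control mice were Wnk1fl/+/CD2Cre/Rag1KO and so kept 1 intact allele of *Wnk1*, the kinase gene under study, whereas WNK1-deficient mice were Wnk1fl/fl/CD2Cre/Rag1KO. Mice were left uninjected (0 hr) or were injected intraperitoneally with 150 µg of anti-CD3ε antibody and killed 3, 24 or 48 hr later. Each library came from a separate mouse, with 3 in each of the 8 groups except the WNK1-deficient group at 0 hr, which had 4 (25 in all).

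Glycolysis splits glucose into pyruvate with a net gain of ATP, and lactate dehydrogenase can turn the pyruvate into lactate so that the pathway keeps running. The pentose phosphate pathway branches off after the first step and yields NADPH and ribose for nucleotide synthesis. Thymocytes that lack Rag1 cannot rearrange their antigen receptor genes and stop at DN3. Anti-CD3ε antibody stands in for the missing pre-T cell receptor (pre-TCR) signal, and the cells then proliferate and move on towards the CD4+CD8+ double-positive stage, a passage in which glucose uptake and glycolysis are known to be needed.

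The 25 libraries held 22.5 M to 57.3 M reads. *Wnk1* itself was lower in every WNK1-deficient library than in any control library of the same time, for example at 3037 to 3967 against 5407 to 7356 normalised reads at 0 hr; the value counts the whole gene and not only the floxed part. 3 libraries stood out. The third control library at 3 hr had 27282 normalised reads over 4 markers of double-positive thymocytes, against 87.9 to 2278 in the other libraries. The third control library at 24 hr and the third WNK1-deficient library at 48 hr kept DN3 genes: *Ptcra* was at 2344 and 574 normalised reads in these, against 59.2 and 115, and 18.2 and 22.5, in the other libraries of each group. All libraries at 0 and 48 hr expressed *Xist* and all at 3 and 24 hr expressed Y-linked genes, so sex cannot be told apart from time in comparisons of 3 or 24 hr with 0 or 48 hr, while within each time both genotypes had the same sex. Markers of other cell types were present at uneven levels. Summed over each list, they ran from 141 to 6160 normalised reads for erythroid cells, 261 to 2852 for macrophages, 20.2 to 292 for dendritic cells, 376 to 2607 for B cells (nearly all from *Cd79b*, with *Ms4a1* and *Pax5* at or near 0), 395 to 4029 for thymic epithelium, 3942 to 12900 for fibroblasts and endothelium and 1642 to 45758 for natural killer and innate lymphocytes, most of the last from *Gzma*. At 0 hr, control and WNK1-deficient libraries were also read on different sequencing lanes, and at that time the effects of the 2 cannot be told apart.

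Promoter sequences of 4 members whose expression differed between the genotypes at 2 or more times are shown, since the 32 genes are often grouped by the transcription factors that read such sequences. MYC binds the E-box CACGTG, and hypoxia-inducible factor 1 binds sites with the core ACGTG or GCGTG. Each window runs from 250 bases before to 50 bases after a transcript start in RefSeq (GRCm38.p6, plus strand), which for *Ldha* and *Pdk1* is not the outermost start of the gene: chr7:46845554-46845853 for *Ldha*, chr4:119108495-119108794 for *Slc2a1*, chr2:71872974-71873273 for *Pdk1* and chr11:78322823-78323122 for *Aldoc*. Where a gene had several windows, the first with ACGTG was taken, or the first listed if none had it, so the windows shown were chosen partly for this motif. Capitals mark the E-box and both core motifs on either strand (the core ACGTG also lies within the E-box).
Ldha: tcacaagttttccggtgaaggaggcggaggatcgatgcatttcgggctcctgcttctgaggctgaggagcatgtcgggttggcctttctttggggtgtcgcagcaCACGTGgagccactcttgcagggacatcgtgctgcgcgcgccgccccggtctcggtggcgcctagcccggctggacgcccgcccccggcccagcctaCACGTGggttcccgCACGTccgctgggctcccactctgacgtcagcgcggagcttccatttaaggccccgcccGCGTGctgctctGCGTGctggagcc
Slc2a1: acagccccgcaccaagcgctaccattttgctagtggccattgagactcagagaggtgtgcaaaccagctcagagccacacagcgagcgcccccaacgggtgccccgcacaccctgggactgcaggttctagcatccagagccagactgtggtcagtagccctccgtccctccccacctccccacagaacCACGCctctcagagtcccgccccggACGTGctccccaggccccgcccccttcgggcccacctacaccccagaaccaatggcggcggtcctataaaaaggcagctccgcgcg
Pdk1: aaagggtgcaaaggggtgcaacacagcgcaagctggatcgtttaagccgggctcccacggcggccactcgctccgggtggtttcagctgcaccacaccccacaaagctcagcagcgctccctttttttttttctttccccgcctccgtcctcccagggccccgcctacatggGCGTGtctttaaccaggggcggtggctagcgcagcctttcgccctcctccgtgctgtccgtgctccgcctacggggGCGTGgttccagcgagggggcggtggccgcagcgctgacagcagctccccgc
Aldoc: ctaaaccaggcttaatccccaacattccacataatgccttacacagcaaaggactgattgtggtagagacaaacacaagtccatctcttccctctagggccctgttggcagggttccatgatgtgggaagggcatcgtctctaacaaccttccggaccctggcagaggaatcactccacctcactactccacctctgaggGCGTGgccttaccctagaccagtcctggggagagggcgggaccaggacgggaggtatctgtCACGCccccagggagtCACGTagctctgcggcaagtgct

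The *Ldha* window held 2 CACGTG matches, 5 ACGTG matches over both strands (each CACGTG holds one on either strand) and 2 GCGTG matches, and that of *Slc2a1* held 1 ACGTG and 1 GCGTG. In the *Pdk1* window there were 2 GCGTG matches, and in the *Aldoc* window 1 ACGTG and 2 GCGTG. The second windows of *Ldha* and *Aldoc*, not shown, held GCGTG and neither of the other motifs, and that of *Pdk1* held none of the 3. RefSeq windows were found for 31 of the 32 members (45 windows, since some genes have several starts). CACGTG was present in 5 of the 45 windows, against 7.15% of 32851 mouse promoters, ACGTG in 20 against 19.6%, and GCGTG in 27 against 32.4%. The 5 members with CACGTG were *Hif1a*, *Ldha*, *Pfkfb3*, *Pfkm* and *Slc16a1*. A match shows only that the letters are present.

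The first question was whether loss of WNK1 altered the expression of these genes before or after the anti-CD3ε signal. Differences are given as log2 of the normalised read count plus 1, WNK1-deficient minus control, with the standard error (SE), and a gene passed where limma's p, adjusted over the 14141 genes tested, was under 0.05. At 0 hr, WNK1-deficient cells had 6 members higher and 2 lower; of all genes tested, 22.1% passed, 11% higher and 11.1% lower. At 3 hr, 5 were higher and 1 lower, against 9.18% of all genes (5.75% higher and 3.43% lower). At 24 hr, 3 were higher and 3 lower, against 12.5% (7.03% and 5.45%), and at 48 hr 3 were higher and 3 lower, against 13.1% (6.13% and 6.95%). The share of members that passed was 25% at 0 hr and 18.8% at each of the later times. With 1 library left out, 3 to 4, 3 to 6 and 4 to 5 members passed at 3, 24 and 48 hr. Whether the members as a set differed from all genes was not tested. The median difference over the 32 members was small (0.08, 0.01, 0.12 and 0.03 at 0, 3, 24 and 48 hr). The groups did not overlap for 13, 11, 12 and 6 members at 0, 3, 24 and 48 hr, and for 40.5%, 28.2%, 33.9% and 23.3% of all genes. At some time 11 members passed, and 21 passed at none, the 21 with differences between -0.67 and 0.72.

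**Figure D1:**
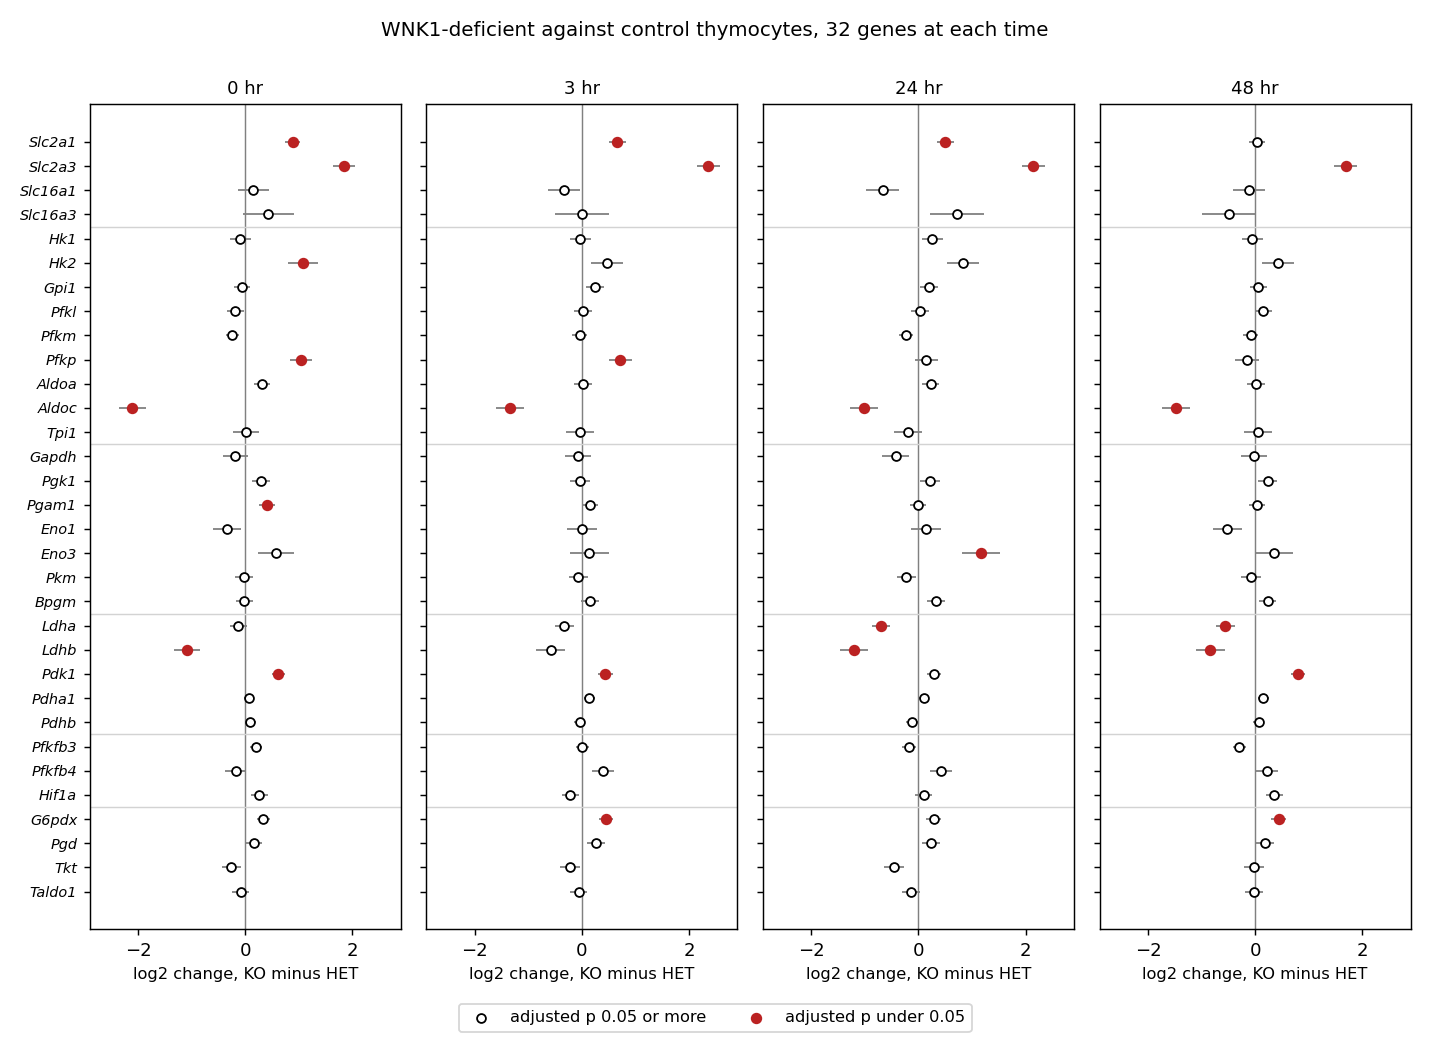
Differences between WNK1-deficient and control thymocytes for all 32 members at 0, 3, 24 and 48 hr, as log2 of the normalised read count plus 1 with the standard error; red points had an adjusted p under 0.05. *Slc2a3* lay far to the right (1.69 to 2.36) and *Aldoc* to the left (-2.11 to -1.01) in all 4 panels, while most other members lay near 0.

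Those counts depended on modelling choices. With only the 2 groups compared in the fit, 1, 3 and 1 members passed at 3, 24 and 48 hr, and with the sequencing lane as a covariate 5 passed at 0 hr (2 higher and 3 lower) and 1 at 48 hr. Of the 26 genotype calls, 11 were lost with lane: *Slc2a1*, *Pfkp*, *Hk2* and *Pgam1* at 0 hr, *Pfkp* and *G6pdx* at 3 hr, and *Aldoc*, *Ldhb*, *Ldha*, *Pdk1* and *G6pdx* at 48 hr. The sign turned for *Hk2* and *Pgam1*, while the 4 calls of *Slc2a3* held. At 0 hr no lane held both genotypes. The lane effect there came only from controls at 48 hr, which were read on both lanes, and whether it held at 0 hr was not tested. With every library scaled to the same total, 3 members were higher and 1 lower at 48 hr. Thymocyte markers also moved with genotype: at 0 hr, 4 of 11 were lower in WNK1-deficient cells (among them the CD3 chain genes *Cd3d* and *Cd3g*) and the summed level of the list was 343131 to 396039 against 568516 to 641240 normalised reads in controls. At 24 hr, 5 of the 11 were lower. Natural killer and innate lymphocyte markers summed to 4985 to 6993 normalised reads in controls at 0 hr and 14662 to 25649 in WNK1-deficient libraries, without overlap. Of the 5 genes in that list, *Gzma* was higher at 0 and 3 hr and *Ncr1* at 24 hr. *Cd79b*, the 1 B cell marker tested, was lower at all 4 times (by 0.88 to 1.69), and 2 of 8 macrophage markers (*Itgam* and *Lyz2*) were lower at 0 hr. Of the other lists, *Itgax* (dendritic cells) was higher at 24 hr, *Epcam* (thymic epithelium) higher at 48 hr and *Col1a1* (fibroblasts) lower at 0 hr. Of 7 stress and dissociation genes, 3 were higher (*Hspa1a*, *Hspa1b* and *Dnajb1*) and 1 lower (*Ddit4*) at 0 hr, and *Hmox1* was higher and *Ddit4* lower at 48 hr. Of all genes tested, 11% were higher and 11.1% lower at 0 hr, and 5.75% and 3.43% at 3 hr. At 24 hr the shares were 7.03% and 5.45%, and at 48 hr 6.13% and 6.95%. The part of these marker and stress genes in the results for the 32 members was not tested.

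Glucose enters these cells through facilitative transporters, and the largest difference in favour of WNK1-deficient cells was in a gene of this kind. *Slc2a3* (ENSMUSG00000003153, chr6:122727809-122802363), which encodes the high-affinity glucose transporter GLUT3, was higher in WNK1-deficient thymocytes at every time. Control libraries held 684, 783 and 627 normalised reads at 0 hr, whereas WNK1-deficient libraries held 1851, 2490.2, 3039.6 and 2816. After 3 hr the control values were 839, 972 and 450.3 and the WNK1-deficient values 3957, 3688 and 3414. The lowest WNK1-deficient library thus had more *Slc2a3* reads than the highest control library. At 24 hr, controls held 1231, 1417 and 1044 and WNK1-deficient libraries 5086, 6342 and 4873, and at 48 hr the values were 1537, 2017 and 1616 against 5675, 5969 and 4985. Again no libraries overlapped. The difference was 1.85 (SE 0.21, adjusted p = 3.83e-06) at 0 hr, 2.36 (SE 0.22, adjusted p = 1.46e-06) at 3 hr, 2.14 (SE 0.22, adjusted p = 4.22e-06) at 24 hr and 1.69 (SE 0.22, adjusted p = 5.78e-05) at 48 hr, that is 3.60-, 5.13-, 4.42- and 3.23-fold, and it passed without any single library. The rise over time was seen in both genotypes, by 1.30 (SE 0.22, adjusted p = 6.8e-05) in control and 1.14 (SE 0.21, adjusted p = 0.000317) in WNK1-deficient cells at 48 hr, and the genotype difference at 3, 24 or 48 hr did not differ from that at 0 hr beyond error (adjusted p from 0.471 to 0.894).

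*Slc2a1* (ENSMUSG00000028645, chr4:119108745-119137330), which encodes the basal glucose transporter GLUT1, was higher in WNK1-deficient cells at 0, 3 and 24 hr but not at 48 hr. At 0 hr the control libraries held 476, 505 and 475 normalised reads and the WNK1-deficient libraries 786, 998, 909 and 908. At 3 hr the values were 694, 775 and 693 against 1040.2, 1155 and 1236. The groups lay well apart at both times, with a tight spread among controls. At 24 hr, controls held 774, 953 and 626 and WNK1-deficient libraries 1058, 1194 and 1045, still apart. By 48 hr, with 907, 1301 and 1084 against 1124, 1297 and 945, the groups overlapped fully. The difference was 0.89 (SE 0.14, adjusted p = 0.000218) at 0 hr, 0.66 (SE 0.15, adjusted p = 0.00881) at 3 hr, 0.50 (SE 0.15, adjusted p = 0.0366) at 24 hr and 0.04 (SE 0.15, adjusted p = 0.912) at 48 hr. The call at 24 hr was lost without any library of the comparison other than control replicate 2 (0.35 to 0.54). That at 0 hr was lost with lane as a covariate. In controls *Slc2a1* rose throughout, by 0.57 at 3 hr (adjusted p = 0.00698), 0.67 at 24 hr (adjusted p = 0.00208) and 1.16 at 48 hr (SE 0.15, adjusted p = 4.43e-06), whereas in WNK1-deficient cells the values at these times were 0.35, 0.29 and 0.31 above 0 hr and did not pass.

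The change in the genotype difference of *Slc2a1* between 0 and 48 hr was itself tested. It was -0.85 (SE 0.21, limma's adjusted p = 0.0488), and *Slc2a1* was the 1 member of 32 that passed, where 1.36% of all genes did. At 3 and 24 hr, limma called no member (0.0707% and 0.658% of all genes passed), with 2 and 5 members at an unadjusted p under 0.05, and neither edgeR nor DESeq2 called any. The *Slc2a1* call lies close to the threshold and was lost in 10 of the 13 fits that left out 1 library, with values of -0.88 to -0.72; it held without control replicate 1 at 48 hr, WNK1-deficient replicate 1 at 0 hr or WNK1-deficient replicate 2 at 48 hr. Without the 3 libraries that stood apart it was -0.73 and did not pass, nor did it with no filter, either scaling, lane (-0.73), only the groups compared or edgeR (adjusted p from 0.0566 to 0.575). It passed with either pseudocount, a filter at 100, a replicate block and DESeq2.

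The make-up of the transporter transcripts is given next as shares, which were not tested. Reads per kilobase of the longest coding transcript allow levels to be compared between genes, and on that scale *Slc2a1* and *Slc2a3* were near equal in controls at 0 hr, with means of 186 and 176 reads per kilobase. In WNK1-deficient cells at 0 hr they were at 345 and 644. *Slc2a3* made up 46.5% to 50.5% of the 2 genes' reads per kilobase in control libraries at 0 hr and 60.8% to 68.8% in WNK1-deficient libraries. At 48 hr it made up 49.5% to 52.7% and 75.2% to 77.6%. The ranges were apart at all 4 times, with controls lowest at 3 hr (30.0% to 45.2%).

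**Figure D2:**
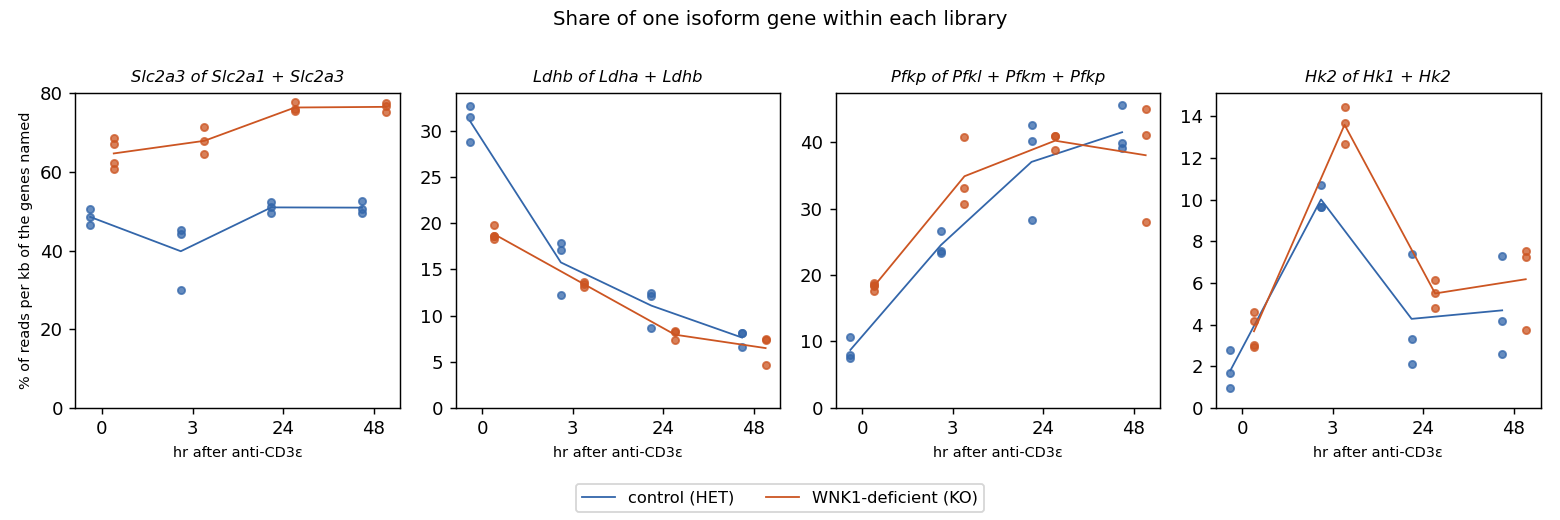
Shares of reads per kilobase taken by 1 isoenzyme or transporter of a pair or family, by library, in control and WNK1-deficient thymocytes at 0, 3, 24 and 48 hr. The share of *Slc2a3* in *Slc2a1* plus *Slc2a3* was higher in WNK1-deficient libraries at every time, the share of *Ldhb* in *Ldha* plus *Ldhb* fell with time in both genotypes from 28.8% to 32.7% in controls at 0 hr, and the shares of *Pfkp* and *Hk2* were lowest in controls at 0 hr.

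Lactate leaves and enters cells with a proton through monocarboxylate transporters. *Slc16a3* (ENSMUSG00000025161, chr11:120948484-120959000), which encodes MCT4, a transporter suited to lactate export, was low at 0 hr, with 21.1, 34.8 and 28.6 normalised reads in controls and 31.8, 28.4, 50.7 and 43.5 in WNK1-deficient libraries. By 24 hr it stood at 122, 271 and 50.5 in controls and 184, 252 and 164 in WNK1-deficient libraries. Every library at 24 hr lay above every library of its genotype at 0 hr, and the lowest was control replicate 3, which stood apart by its DN3 markers. At 48 hr the values were 128, 181 and 145 in controls and 105, 190.3 and 61.5 in WNK1-deficient libraries. The rise in controls was 2.07 (SE 0.50, adjusted p = 0.00319) at 24 hr and 2.40 (SE 0.50, adjusted p = 0.000623) at 48 hr, and in WNK1-deficient cells it was 2.36 (SE 0.47, adjusted p = 0.000597) and 1.49 (SE 0.47, adjusted p = 0.0231). That last call was lost without WNK1-deficient replicate 1 (1.41) or 2 (1.35) at 0 hr or replicate 1 (1.5) or 2 (1.07) at 48 hr. The genotypes did not differ beyond error at any time. *Slc16a1*, which encodes the widely expressed lactate transporter MCT1, ranged from 1649 to 6769 normalised reads and fell in WNK1-deficient cells by 1.42 at 24 hr (adjusted p = 0.000605), a call that held without any single library and was lost with lane as a covariate (adjusted p = 0.16). In controls the change at 24 hr did not pass, with 2499, 1649 and 5311 normalised reads against 3529 to 4954 at 0 hr. The highest of the 3 was again replicate 3, which stood apart. Controls at 48 hr held 2048 to 3725, which did not pass either.

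**Figure D3:**
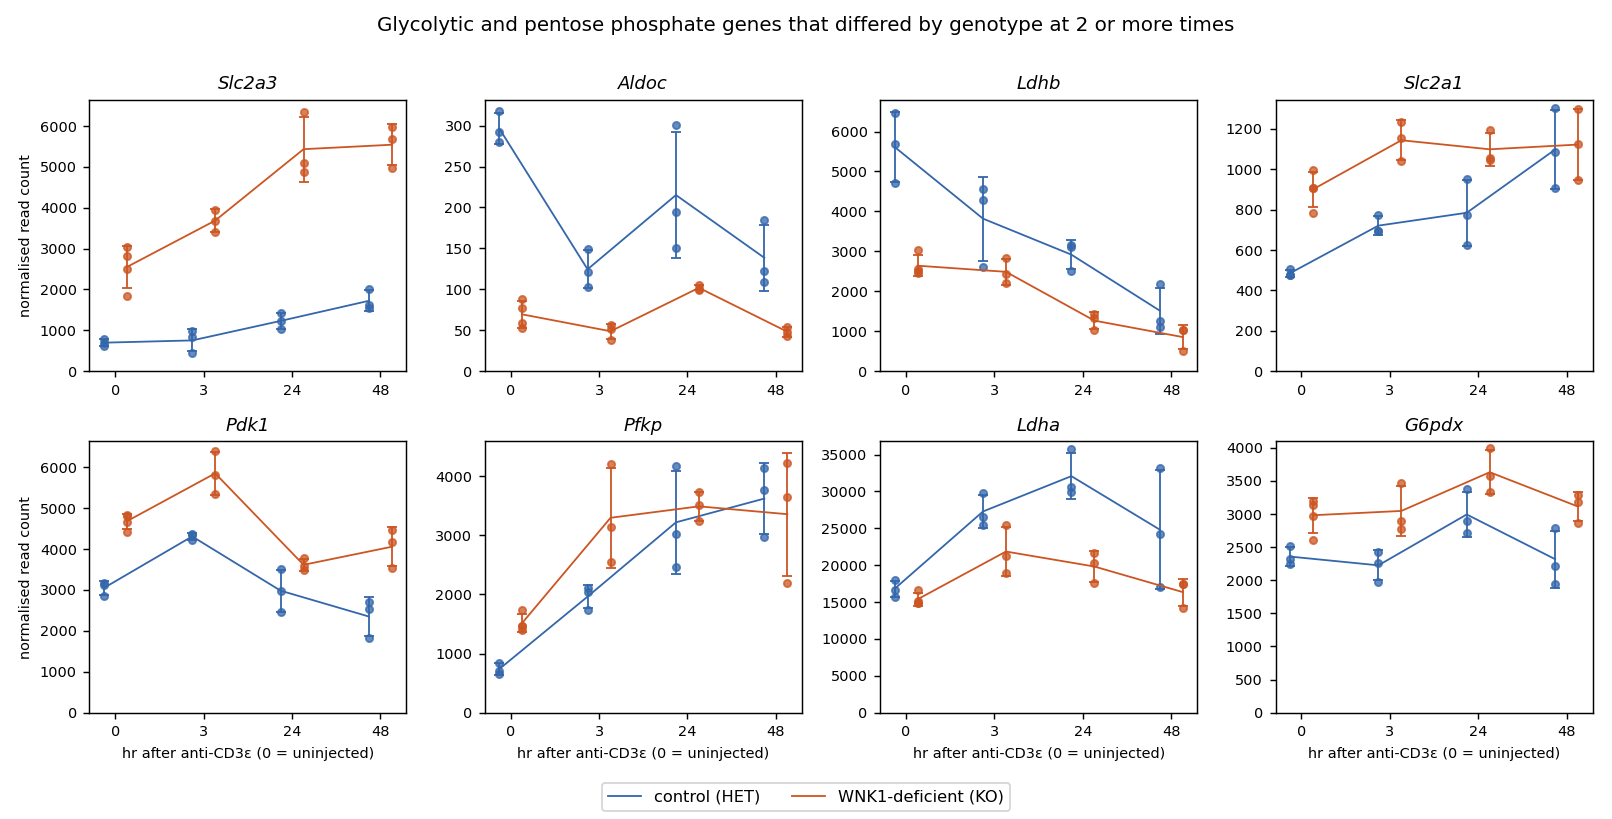
Normalised read counts of the 8 members that passed the most genotype comparisons, in control and WNK1-deficient thymocytes at 0, 3, 24 and 48 hr; points are libraries, lines join the means and bars are SD (n = 3, or 4 for WNK1-deficient at 0 hr). For *Slc2a3* the WNK1-deficient libraries (1851 to 6342) stayed above the controls of the same time, and for *Aldoc* they (38.5 to 105) stayed below.

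Within the steps from hexokinase to the triose phosphates, 2 of 9 members were higher and 1 lower in WNK1-deficient cells at 0 hr, 1 higher and 1 lower at 3 hr, and 1 lower at 24 and at 48 hr. The share of all genes that passed was 22.1%, 9.18%, 12.5% and 13.1% at 0, 3, 24 and 48 hr. Hexokinases trap glucose in the cell by phosphorylation. *Hk2* (ENSMUSG00000000628, chr6:82725025-82774454), an inducible hexokinase that binds mitochondria, had 199, 160.5 and 279 normalised reads in controls at 0 hr and 357, 421, 497 and 498 in WNK1-deficient libraries. By 3 hr it had reached 1381, 1431 and 1105 in controls and 1738, 1818 and 1854 in WNK1-deficient libraries. The increase after the injection was larger than any difference between the genotypes, and at 3 hr all libraries lay far above all those at 0 hr. At 24 hr the values had come down to 369, 321 and 636 in controls and 722, 876 and 672 in WNK1-deficient libraries, and at 48 hr they were 880.2, 668 and 344 against 972, 565 and 905. *Hk2* rose in controls by 2.64 at 3 hr (SE 0.29, adjusted p = 1.13e-06, 6.23-fold), the largest called increase of any member over time in controls, and in WNK1-deficient cells by 2.03 (SE 0.28, adjusted p = 2.33e-05, 4.10-fold).

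The 2 genotypes differed in *Hk2* at 0 hr by 1.08 (SE 0.28, adjusted p = 0.00807), a call lost without control replicate 2 (0.89), and with lane as a covariate the sign turned (-0.07). Its differences at the later times, 0.47, 0.83 and 0.43, did not pass. The rises at 24 hr, of 1.02 (adjusted p = 0.0108) in control and 0.77 (adjusted p = 0.0377) in WNK1-deficient cells, also rested on single libraries: the first was lost without control replicate 2 at 0 hr (0.84) or replicate 3 at 24 hr (0.73), and the second in 5 of the 7 fits that left out 1 library (0.67 to 0.86). *Hk1*, the constitutive hexokinase, ranged from 6161 to 13201 normalised reads and passed no comparison. *Hk2* was a minor part of the hexokinase reads per kilobase, at 0.94% to 2.80% in controls at 0 hr and at most 14.5%, in WNK1-deficient cells at 3 hr.

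Phosphofructokinase commits sugar to glycolysis, and its 3 subunits moved in different directions. *Pfkp* (ENSMUSG00000021196, chr13:6579874-6649060), the platelet-type subunit, had 709, 657 and 846 normalised reads in controls at 0 hr and 1397, 1462, 1737 and 1475 in WNK1-deficient libraries. At 3 hr the values were 2111, 1739 and 2042 against 2543, 3139.5 and 4209. WNK1-deficient libraries were higher at both times without overlap. At 24 hr, controls held 3017, 4180.3 and 2463 and WNK1-deficient libraries 3235, 3727 and 3511, and at 48 hr 2968, 4133 and 3766 against 3652, 4221 and 2201. By then the groups overlapped, and the difference of 1.04 at 0 hr (SE 0.20, adjusted p = 0.00112) and 0.72 at 3 hr (SE 0.22, adjusted p = 0.0417) was replaced by 0.15 and -0.15, which did not pass. The call at 3 hr was lost without any library other than WNK1-deficient replicate 1 (0.53 to 0.78 where lost). With lane as a covariate the calls at 0 and 3 hr were lost. Controls rose by 2.29 at 48 hr (SE 0.22, adjusted p = 7.14e-08, 4.89-fold) and WNK1-deficient cells by 1.10 (SE 0.20, adjusted p = 0.000444, 2.14-fold). The difference between these 2 rises, -1.19 (SE 0.30), had an adjusted p of 0.05, just above the threshold.

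The other subunits did not rise. *Pfkl*, the liver-type subunit, ranged from 2511 to 5349 normalised reads and fell in controls by 0.66 at 48 hr (adjusted p = 0.00308), and *Pfkm*, the muscle-type subunit, ranged from 912 to 1942 and fell in controls by 0.50 at 3 hr (adjusted p = 0.0055, lost with lane) and 0.54 at 48 hr (adjusted p = 0.00244). *Pfkm* also fell in WNK1-deficient cells, by 0.39 at 24 hr and 0.39 at 48 hr. Each of these calls was lost without either of 2 libraries and with lane. *Pfkp* thus grew from 7.50% to 10.7% of the 3 subunits' reads per kilobase in controls at 0 hr to 39.1% to 45.5% at 48 hr, and from 17.6% to 18.7% to 28% to 45% in WNK1-deficient cells.

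Aldolase splits the 6-carbon sugar. *Aldoc* (ENSMUSG00000017390, chr11:78323073-78327781), the brain-type isoenzyme, was the member with the largest difference in favour of controls: at 0 hr control libraries held 280.0, 292 and 317 normalised reads and WNK1-deficient libraries 88.5, 76.8, 59.1 and 53.3. Values at 3 hr were 149, 103 and 121 against 56.5, 51.4 and 38.5. At 24 hr they were 194, 301 and 150.5 against 105, 99.4 and 101, and at 48 hr 109, 185 and 122 against 42.5, 54.2 and 48.0. At each time the controls lay entirely above the WNK1-deficient libraries. The difference was -2.11 (SE 0.25, adjusted p = 6.24e-06) at 0 hr, -1.33 (SE 0.26, adjusted p = 0.00244) at 3 hr, -1.01 (SE 0.26, adjusted p = 0.0146) at 24 hr and -1.47 (SE 0.26, adjusted p = 0.000997) at 48 hr, or 4.30-, 2.52-, 2.02- and 2.77-fold lower. The call at 24 hr was lost without control replicate 2 (-0.74) or WNK1-deficient replicate 2 (-0.99), and the other 3 held without any single library. That at 48 hr was lost with lane as a covariate.

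Over time *Aldoc* fell in controls by 1.26 at 3 hr (SE 0.26, adjusted p = 0.000893) and 1.13 at 48 hr (SE 0.26, adjusted p = 0.00156). Between 24 and 48 hr it fell in WNK1-deficient cells by 1.07 (SE 0.26, adjusted p = 0.0172), a call lost without replicate 1 (-1.05) or 2 (-1.09) at 24 hr or replicate 1 at 48 hr (-0.98). *Aldoc* is a minor aldolase in these cells: its mean in controls at 0 hr was 106 reads per kilobase, against 5779 for *Aldoa*, the main aldolase gene of most tissues, which ranged from 7151 to 14973 normalised reads and passed no comparison. Of the remaining enzymes of these steps, *Gpi1* (glucose-6-phosphate isomerase) ranged from 16843 to 27865 normalised reads and passed none, and *Tpi1* (triosephosphate isomerase) ranged from 2557 to 9124 and passed no genotype comparison.

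In the steps from triose phosphates to pyruvate, 1 of 7 members was higher in WNK1-deficient cells at 0 hr and 1 at 24 hr. Of all genes tested, 22.1% and 12.5% passed at these times. None of the 7 was called at 3 or 48 hr, where 9.18% and 13.1% of all genes passed. At 3 and 48 hr limma had none at an unadjusted p under 0.05 either, and edgeR and DESeq2 called none. ATP and NADH are made within these steps, and the members *Gapdh* (12667 to 40817 normalised reads) and *Pkm* (pyruvate kinase, 17484 to 41762) were among the most highly expressed. *Pgam1*, a phosphoglycerate mutase, was higher in WNK1-deficient cells at 0 hr, at 5035 to 5900.5 against 3779 to 4119 normalised reads (0.41, adjusted p = 0.0448), but the call was lost without any of the 7 libraries (0.35 to 0.43) and its sign turned with lane (-0.20). In controls *Pgam1* rose by 0.80 at 3 hr (adjusted p = 0.000383) and 1.14 at 24 hr (adjusted p = 7.85e-06), calls that held without any single library. It also rose in WNK1-deficient cells, by 0.54 at 3 hr, a call lost without replicate 3 at 3 hr (0.39). Its rise there at 24 hr, 0.73, held without any single library and with lane as a covariate. The count of *Pgam1*, and that of *Pgk1* (phosphoglycerate kinase, 3481 to 8560), is uncertain, since near-identical copies are also in the table (*Pgam1-ps2* at 32.6 to 676 and *Pgk1-rs7* at 318 to 3995 normalised reads) and reads may be split between them. *Bpgm*, which makes 2,3-bisphosphoglycerate, ranged from 990 to 3083 and rose in WNK1-deficient cells by 0.68 at 24 hr (adjusted p = 0.00203). In controls it was at 1576 to 2415 at 24 hr against 1445 to 1789 at 0 hr, a change that did not pass.

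Enolase makes phosphoenolpyruvate, and both of its genes among the members rose after the injection. *Eno1* (ENSMUSG00000063524, chr4:150236708-150248879), the common isoenzyme, stood at 6248, 5060.5 and 4459 normalised reads in controls at 0 hr and 3600.5, 4335, 4822 and 3828 in WNK1-deficient libraries. Values at 3 hr were 8043, 3306 and 3711 in controls and 4902, 4119.8 and 4911 in WNK1-deficient libraries. The first control library lay above all controls at 0 hr and the others lay below them, and the change passed in neither genotype. At 24 hr they had reached 17203, 20296 and 13645 in controls and 19918, 19744 and 16071 in WNK1-deficient libraries. At 48 hr they were 14407, 23417 and 13801 in controls and 12092, 15765 and 8308 in WNK1-deficient libraries. All libraries at 24 and 48 hr were above all those at 0 hr. The rise was 1.69 (SE 0.28, adjusted p = 7.97e-05) at 24 hr and 1.68 (SE 0.28, adjusted p = 4.92e-05) at 48 hr in controls, and 2.17 (SE 0.26, adjusted p = 2.1e-06) and 1.5 (SE 0.26, adjusted p = 0.000205) in WNK1-deficient cells. None of the 4 calls depended on a single library, and the genotypes did not differ beyond error at any time.

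*Eno3* (ENSMUSG00000060600, chr11:70653125-70662513), the muscle-type isoenzyme, rose and then came back down. At 0 hr it was at 153, 152 and 149 normalised reads in controls and 184, 224, 279 and 227 in WNK1-deficient libraries, and at 3 hr at 468, 241 and 483 against 348, 420.1 and 498. The peak came at 24 hr, with 667, 1071 and 289.9 in controls and 1332, 1813 and 971 in WNK1-deficient libraries. At 48 hr the values were 292, 251 and 195 against 271, 453 and 244. The lowest of the 6 libraries at 24 hr was control replicate 3, and the highest control library overlapped the lowest WNK1-deficient one. In WNK1-deficient cells *Eno3* rose by 2.55 at 24 hr (SE 0.34, adjusted p = 7.23e-06, 5.86-fold), the largest called increase over time in that genotype, and fell by 2.09 between 24 and 48 hr (SE 0.36, adjusted p = 0.00145). In controls it rose by 1.96 at 24 hr (SE 0.36, adjusted p = 0.000282) and fell by 1.28 (SE 0.36, adjusted p = 0.0152), the fall being lost without control replicate 2 at 24 hr (-0.85) or replicate 3 at 48 hr (-1.13). The genotype difference at 24 hr, 1.17 (SE 0.36, adjusted p = 0.0381), was lost without control replicate 1 (1.25) or 3 (0.65) or WNK1-deficient replicate 1 (1.16) or 2 (0.94).

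**Figure D4:**
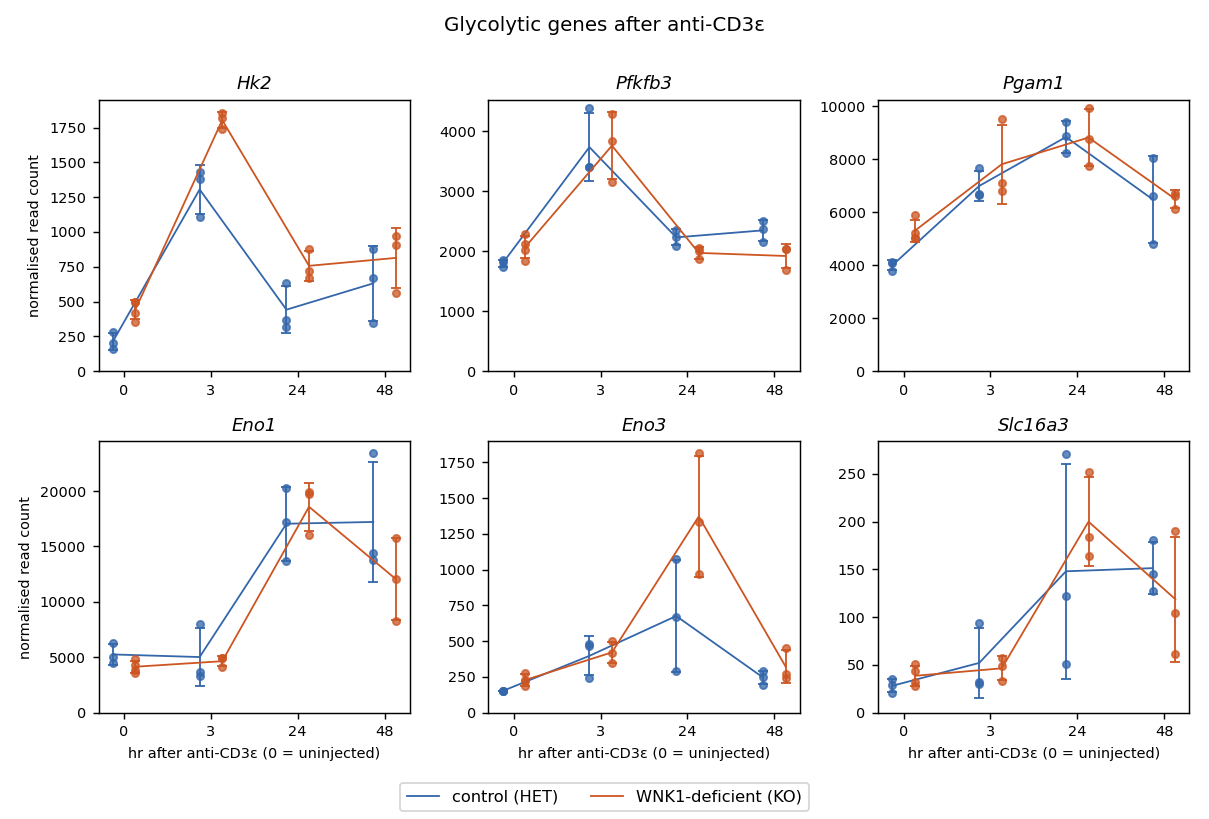
Normalised read counts of 6 members with marked changes after anti-CD3ε injection, in control and WNK1-deficient thymocytes at 0, 3, 24 and 48 hr; points are libraries, lines join the means and bars are SD. *Hk2* and *Pfkfb3* were highest at 3 hr, *Eno3* at 24 hr, and *Eno1* and *Slc16a3* were high at both 24 and 48 hr.

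Pyruvate is either reduced to lactate or passed to the mitochondria, and 3 of the genes at this branch differed between the genotypes at some time. The share of all genes that passed was 22.1%, 9.18%, 12.5% and 13.1% at 0, 3, 24 and 48 hr. Lactate dehydrogenase is built from A subunits, which favour lactate production, and B subunits, which favour its use. *Ldhb* (ENSMUSG00000030246, chr6:142490249-142507957), the gene of the B subunit, had 6457, 5675 and 4709.9 normalised reads in controls at 0 hr and 2462, 2565, 3033 and 2505 in WNK1-deficient libraries. At 3 hr the values were 4565, 2614 and 4279 against 2200.3, 2426 and 2837, at 24 hr 3148, 3107 and 2499 against 1336, 1441 and 1024, and at 48 hr 1266, 2178 and 1106 against 511, 1025 and 1029. WNK1-deficient libraries were lower without overlap except at 3 hr. The difference was -1.08 (SE 0.25, adjusted p = 0.00364) at 0 hr, -0.58 (SE 0.26, adjusted p = 0.18) at 3 hr, -1.21 (SE 0.26, adjusted p = 0.0046) at 24 hr and -0.83 (SE 0.26, adjusted p = 0.0403) at 48 hr. At 48 hr the call was lost without control replicate 2 (-0.54) or WNK1-deficient replicate 1 (-0.50), and also with lane as a covariate. Both genotypes lost *Ldhb* reads over time: by 48 hr it had fallen by 1.94 in controls (SE 0.26, adjusted p = 5.33e-06) and by 1.69 in WNK1-deficient cells (SE 0.25, adjusted p = 3.7e-05). The fall of 1.00 between 24 and 48 hr in controls (SE 0.26, adjusted p = 0.0105) was lost without replicate 3 at 48 hr (-0.81).

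*Ldha* (ENSMUSG00000063229, chr7:46842274-46855627), the gene of the A subunit, did not differ between the genotypes beyond error at 0 hr, at 17960.4, 16684 and 15746 against 14897, 15149, 16617 and 14830.4 normalised reads. At 3 hr it was at 29850.2, 25403 and 26592 in controls and 18955, 21198 and 25401 in WNK1-deficient libraries. At 24 hr it was at 29903, 30623 and 35699.7 against 20269.8, 21633 and 17559.5. Control libraries were clearly higher by then, without overlap. At 48 hr, with 24233, 33189 and 17053 against 14230.2, 17445 and 17385, control replicate 3 fell within the WNK1-deficient range. The difference was -0.13 (SE 0.16, adjusted p = 0.608) at 0 hr, -0.33 (SE 0.17, adjusted p = 0.263) at 3 hr, -0.70 (SE 0.17, adjusted p = 0.0107) at 24 hr and -0.56 (SE 0.17, adjusted p = 0.037) at 48 hr. The call at 24 hr was lost without control replicate 3 (-0.62) or WNK1-deficient replicate 3 (-0.61), and that at 48 hr without control replicate 1 (-0.55) or 2 (-0.32) or WNK1-deficient replicate 1 (-0.46) or 3 (-0.60). With lane as a covariate the call at 48 hr was lost as well. The change of the genotype difference from 0 to 24 hr, -0.57, did not pass (adjusted p = 0.275).

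In controls *Ldha* rose by 0.70 at 3 hr (SE 0.17, adjusted p = 0.00338) and 0.93 at 24 hr (SE 0.17, adjusted p = 0.000282). In WNK1-deficient cells it rose by 0.50 at 3 hr (SE 0.16, adjusted p = 0.0277), a call lost without replicate 1, 2 or 4 at 0 hr or replicate 2 or 3 at 3 hr (0.38 to 0.51), and at 24 hr its value was 0.36 above 0 hr and did not pass (adjusted p = 0.0944). *Ldhb* made up 28.8% to 32.7% of the reads per kilobase of the 2 genes in controls at 0 hr and 18.3% to 19.8% in WNK1-deficient cells. By 48 hr these shares were 6.61% to 8.16% and 4.64% to 7.42%, overlapping.

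*Pdk1* (ENSMUSG00000006494, chr2:71873215-71903858) encodes a kinase that switches off pyruvate dehydrogenase and so holds back the use of pyruvate in the mitochondria. Controls held 2844, 3176 and 3124 normalised reads at 0 hr, and WNK1-deficient libraries held 4829, 4660.0, 4426 and 4802. After 3 hr they were 4358, 4352 and 4219 against 5805, 6401 and 5347. The genotypes were widely apart at both times. At 24 hr they met, at 2969, 2472 and 3507 against 3785, 3575 and 3484, and at 48 hr they were apart again, at 2529.6, 1814 and 2707 against 4468, 3538 and 4165. The difference was 0.62 (SE 0.13, adjusted p = 0.00163) at 0 hr, 0.44 (SE 0.14, adjusted p = 0.0465) at 3 hr, 0.29 (SE 0.14, adjusted p = 0.172) at 24 hr and 0.80 (SE 0.14, adjusted p = 0.00062) at 48 hr. The call at 3 hr was lost without any of the 6 libraries (0.37 to 0.50), and those at 0 and 48 hr held without any single one, although that at 48 hr was lost with lane (0.55, adjusted p = 0.114). *Pdha1* and *Pdhb*, which encode subunits of pyruvate dehydrogenase itself, passed no genotype comparison. *Pdha1* ranged from 5826 to 11645 normalised reads and rose in both genotypes, by 0.56 (adjusted p = 0.000368) and 0.59 (adjusted p = 0.000112) at 24 hr in control and WNK1-deficient cells, and *Pdhb* ranged from 2737 to 4058.

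None of the 3 regulators passed limma's test between the genotypes at any time, nor edgeR's or DESeq2's; 2 of them, *Hif1a* and *Pfkfb3*, had an unadjusted p under 0.05 at 48 hr. Over time each was unlike the others. *Hif1a*, the oxygen-sensitive transcription factor that drives many glycolytic genes, ranged from 2201 to 6804 normalised reads. It rose in controls by 0.89 at 3 hr (adjusted p = 0.000307), 0.76 at 24 hr (adjusted p = 0.00115) and 0.86 at 48 hr (adjusted p = 0.000232), and in WNK1-deficient cells by 0.59 at 24 hr (adjusted p = 0.0053) and 0.95 at 48 hr (adjusted p = 0.000102). *Pfkfb3*, which makes the activator of phosphofructokinase fructose 2,6-bisphosphate, peaked at 3 hr: it rose from 1735 to 1848 to 3413 to 4389 normalised reads in controls (1.04, adjusted p = 2.44e-06) and from 1845 to 2291 to 3163 to 4285 in WNK1-deficient cells (0.86, adjusted p = 2.31e-05). *Pfkfb4*, its relative, ranged from 201 to 512 and fell in controls by 0.77 at 3 hr (adjusted p = 0.00565). Leaving out any single library kept the calls given here for *Hif1a*, *Pdha1*, *Pfkfb3* and *Pfkfb4* at these times. With lane as a covariate those of *Hif1a* and *Pfkfb3* in controls at 3 hr, *Hif1a* in controls at 48 hr and *Pdha1* in controls at 24 hr held. Lost were *Hif1a* in controls at 24 hr, *Pfkfb4*, and every one in WNK1-deficient cells (adjusted p from 0.0597 to 0.461).

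In the pentose phosphate pathway, 1 of 4 members differed between the genotypes, at 3 and 48 hr, where 9.18% and 13.1% of all genes passed. *G6pdx* (ENSMUSG00000031400, chrX:74409483-74428880), the X-linked gene of glucose-6-phosphate dehydrogenase, which opens the pathway and sets its rate, had 2515, 2317 and 2242 normalised reads in controls at 0 hr and 2614, 3145, 3196 and 2975 in WNK1-deficient libraries. At 3 hr it was at 2429, 1982 and 2267 against 2893, 2774 and 3476. At 24 hr the values were 2707, 3377 and 2899 against 3571, 3991 and 3335, and at 48 hr 2212, 2793 and 1951 against 2869.6, 3294 and 3175. Libraries of the 2 genotypes overlapped at 24 hr and at no other time, and the gaps between them were small. The difference was 0.34 (SE 0.12, adjusted p = 0.0567) at 0 hr, 0.45 (SE 0.13, adjusted p = 0.0359) at 3 hr, 0.28 (SE 0.13, adjusted p = 0.178) at 24 hr and 0.44 (SE 0.13, adjusted p = 0.0338) at 48 hr. The call at 3 hr was lost without control replicate 2 (0.37) or 3 (0.47) or WNK1-deficient replicate 1 (0.49) or 3 (0.35), and that at 48 hr without control replicate 1 (0.41) or 3 (0.32) or WNK1-deficient replicate 2 (0.40) or 3 (0.42). Each was also lost with lane as a covariate. The other members, *Pgd* (6-phosphogluconate dehydrogenase, 3835 to 6804 normalised reads), *Tkt* (transketolase, 10862 to 25501) and *Taldo1* (transaldolase, 5021 to 9971), passed no genotype comparison.

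The second question was how these genes changed after the anti-CD3ε signal in each genotype. The comparisons with 0 hr share the libraries at 0 hr. Where 3 or 24 hr is compared with 0 or 48 hr, sex cannot be told apart from time. In controls 9 members rose and 6 fell at 3 hr, where 37% of all genes passed (18.4% higher and 18.5% lower). At 24 hr 12 rose and 4 fell, against 33.9% (17% and 16.9%), and at 48 hr 11 rose and 8 fell, against 42.4% (21.6% and 20.8%). In WNK1-deficient cells 5 rose and 4 fell at 3 hr, against 24.7% (13.3% and 11.3%). At 24 hr 11 rose and 4 fell, against 30.4% (16% and 14.3%), and at 48 hr 8 rose and 4 fell, against 26.8% (14.3% and 12.5%). The median change over the 32 members was highest at 24 hr, at 0.32 in controls and 0.29 in WNK1-deficient cells, and between -0.11 and 0.08 at 3 and 48 hr. Triose phosphate to pyruvate enzymes had 4 of 7 members higher and none lower at 24 hr in each genotype. Between 24 and 48 hr, 1 member rose and 8 fell in controls, against 23.3% of all genes (12.9% higher and 10.4% lower), and 2 fell in WNK1-deficient cells, against 6.5% (3.38% and 3.12%).

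The counts over time moved with other features of the libraries. With lane as a covariate 6 members passed at 3 hr and 9 at 24 hr in controls, and 2, 8 and 4 at 3, 24 and 48 hr in WNK1-deficient cells. Of the 97 calls over time, 55 were lost with lane, among them *Ldhb* at 24 and 48 hr and *Slc2a3* at 24 and 48 hr in WNK1-deficient cells. Those of *Eno1* at 24 and 48 hr in both genotypes, of *Hk2* at 3 hr in both and of *Eno3* at 24 hr in both held. No library at 3 or 24 hr shared a lane with any at 0 hr or with controls at 48 hr. For those comparisons the lane effect rested on 1 library, the third WNK1-deficient one at 48 hr, which stood apart. With every library scaled to the same upper quartile, 8 members rose and 4 fell at 3 hr in WNK1-deficient cells. None of the 9 calls in controls between 24 and 48 hr was left with lane as a covariate or with only these groups in the fit, and 5 passed without the 3 libraries that stood apart. Of 14 S phase and mitosis genes, 12 rose and none fell at 24 hr in controls, where 33.9% of all genes passed. In WNK1-deficient cells, where 30.4% did, limma called none of the 14 (1 at an unadjusted p under 0.05, and 1 by edgeR and by DESeq2). The difference between the genotypes in this change passed for none of the 14 either, the lowest adjusted p being 0.091 for *Pcna*. The part of proliferation in the changes over time was not tested. In bulk RNA a change in the number of cells of a kind cannot be told apart from a change in RNA per cell.

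**Figure D5:**
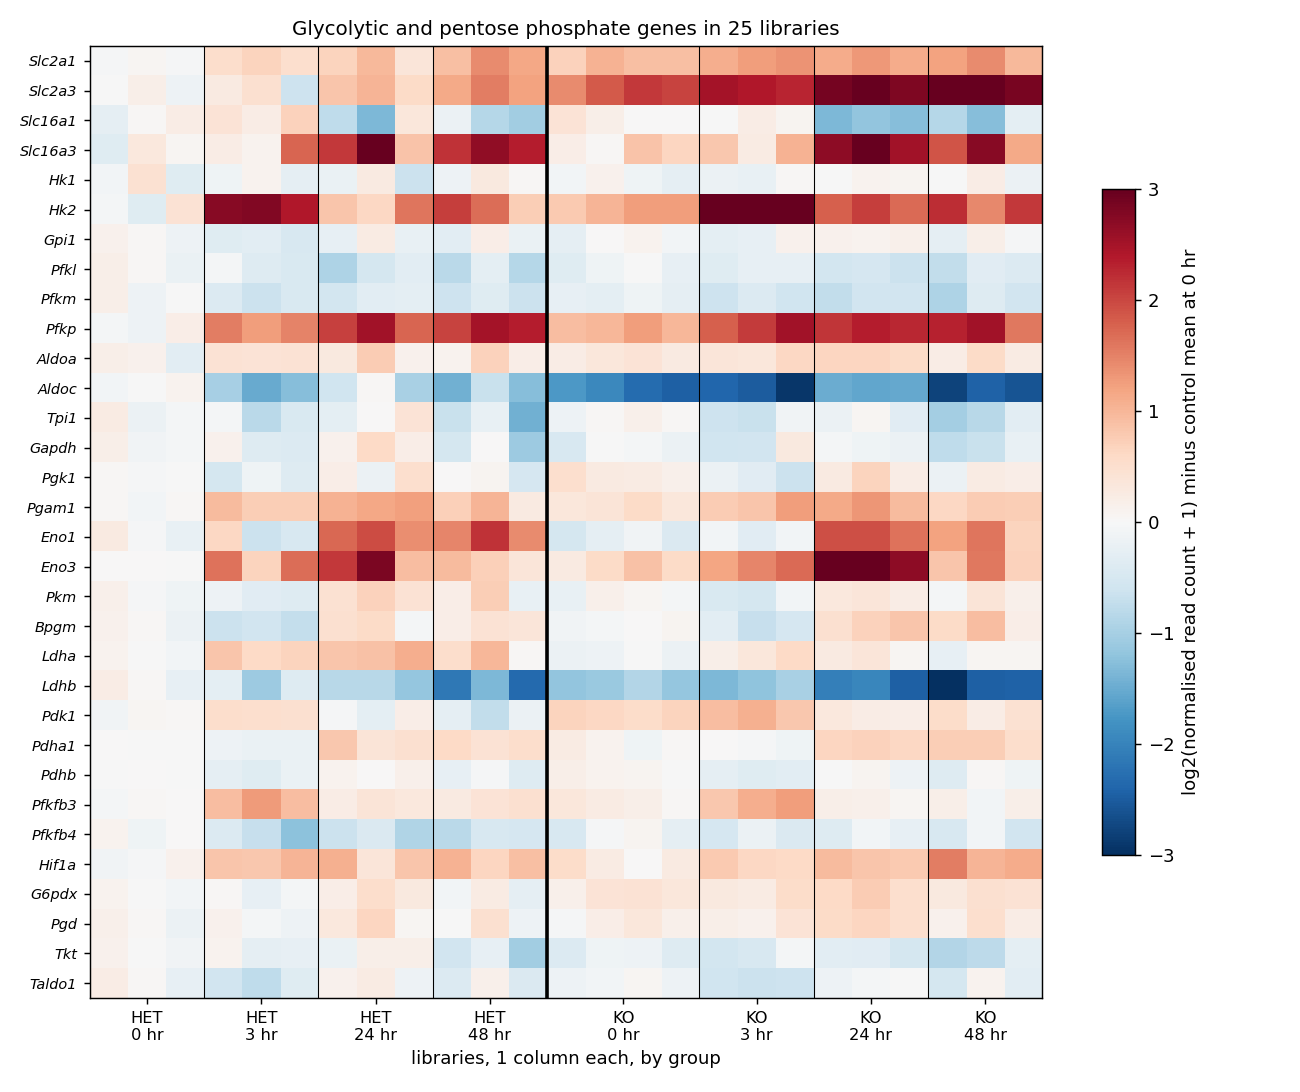
Normalised read counts of the 32 members in all 25 libraries, as log2 relative to the mean of the control libraries at 0 hr, with colours capped at -3 and 3; rows are members ordered by role and columns are libraries ordered by genotype and time. *Slc2a3* was high throughout the WNK1-deficient libraries, *Eno1* and *Slc16a3* were high at 24 and 48 hr in both genotypes, and *Ldhb* was lowest at 48 hr.

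The 32 genes together took 0.457% to 0.785% of the reads in a library. The share was highest at 24 hr, with 0.658% to 0.785% in controls and 0.635% to 0.692% in WNK1-deficient cells, and at 0 hr it was 0.504% to 0.628% and 0.559% to 0.603%. In each case the genotypes overlapped. The summed share of the 4 transporter genes was apart between the genotypes at all 4 times, at 0.0131% to 0.0163% in controls and 0.0225% to 0.0243% in WNK1-deficient libraries at 0 hr and at 0.0125% to 0.0174% and 0.0243% to 0.0267% at 48 hr. Of the 4, only *Slc2a3* passed at 48 hr, with means of 5543 normalised reads in WNK1-deficient cells and 1723 in controls. *Slc2a1* (1122 against 1097), *Slc16a1* (2504 against 2697) and *Slc16a3* (119 against 151) did not.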

How the data were processed

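The authors sequenced stranded polyA libraries as single-end reads of 75 bases, trimmed them with Trimmomatic 0.36, aligned them with STAR 2.5.2a to GRCm38 (Ensembl release 86), counted reads per gene with RSEM 1.2.31 and divided them by size factors from DESeq2 1.18.1 in R 3.4.1. The deposited values are thus a normalised read signal per gene and library, called normalised read counts here. Dividing by each library's step gave back whole reads (within 0.001) in all 25 libraries, of which 23 passed a check of the file and 2, whose step lay near 1, did not and were kept as plain signal. The count tools used all 25.

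The main test was limma-trend (limma 3.58.1, R 4.3.3) on log2(value + 1), which understates changes of low genes, over 14141 genes with a mean of at least 10, with 1 mean for each of the 8 groups. P values were adjusted by Benjamini-Hochberg within each of 15 comparisons, with a threshold of 0.05. An interaction is the genotype difference at a time minus that at 0 hr. Tested alternatives were pseudocounts of 0.5 and 5, other filters (none, a mean of 100) and scalings (same upper quartile, same total), edgeR 4.0.16 and DESeq2 1.42.0 on the recovered reads, fits of only the groups compared, a replicate block, lane as a covariate and each replicate left out. Leaving out the 3 libraries that stood apart together was added after seeing the data. The fit was tested on simulated counts with known changes.

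The 32 members and all other gene lists were chosen with earlier results of these data known. Library values and full statistics are given for the 8 members passing the most genotype comparisons, for the 3 with the largest called change over time in each genotype, for members passing an interaction and for the 3 with the largest called change from 24 to 48 hr. *Pgam1* and *Pfkfb3* are shown for illustration and were chosen after their values were seen. Of other lists at most 2 genes a comparison are named. Reads per kilobase used the longest coding transcript, and shares made from them were not tested. Promoter windows and coordinates came from RefSeq (GRCm38.p6), and figures were drawn with matplotlib 3.10.9.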

Additional observations from a re-analysis of the deposited data

Results flagged for a closer look

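The genotype difference of *Slc2a1* changed between 0 and 48 hr by -0.85 on the log2 scale (SE 0.21, limma's adjusted p = 0.0488), as control cells rose from 475 to 505 normalised reads to 907 to 1301 and WNK1-deficient cells went from 786 to 998 to 945 to 1297. It is listed since a test of the difference between the 2 times passed, close to the threshold. The call was lost with no filter, either scaling, lane, only the groups compared, edgeR or without the 3 libraries that stood apart (adjusted p from 0.0566 to 0.575), and in 10 of 13 fits that left out 1 library. Among the 32 members in the WNK1-deficient group at 0 hr, which has 4 libraries, 0 had a library past Dixon's limit.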

How the results depend on the processing

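For 75 called values of the genes given with full statistics, DESeq2 and both pseudocounts kept every call, edgeR lost 3, the filter at 100 lost 1, no filter 13, either scaling 4, leaving out the 3 libraries that stood apart 12, only the groups compared 22 and lane 32. Lane reversed 1, *Hk2* at 0 hr between the genotypes (-0.0746). Lane gave 5 called members at 0 hr and 1 at 48 hr between the genotypes, 6 and 9 at 3 and 24 hr in controls, 2, 8 and 4 at 3, 24 and 48 hr in WNK1-deficient cells, and 0 and 1 between 24 and 48 hr in controls and WNK1-deficient cells. Lane overlaps time and genotype, its effect was in part carried over from other groups, and the cause was not tested. With only the groups compared, 1, 3 and 1 members passed between the genotypes at 3, 24 and 48 hr, 16 in WNK1-deficient cells at 3 hr, and 0 and 1 between 24 and 48 hr, with fewer libraries to estimate the spread. With no filter 3 passed at 3 hr and 3 at 48 hr between the genotypes, with more genes tested. Leaving out the 3 libraries gave 5 between 24 and 48 hr in controls and 1 interaction at 24 hr. For the interaction at 48 hr, a pseudocount of 5, a filter at 100 and DESeq2 gave 2, while no filter, either scaling, lane, only the groups compared, leaving out the 3 libraries and edgeR gave 0.

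Leaving out single replicates gave between the genotypes, in order of time, 6 to 8, 3 to 4, 3 to 6 and 4 to 5 called members. In controls it gave 13 to 14, 13 to 18 and 16 to 20 at 3, 24 and 48 hr and 0 to 12 between 24 and 48 hr, and in WNK1-deficient cells 5 to 9, 11 to 14, 7 to 13 and 1 to 2. The interactions gave 0 to 0, 0 to 1 and 0 to 2 at 3, 24 and 48 hr.

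Replicate numbers did not mark pairs: correlations of same-numbered libraries ran from -0.197 to 0.205, 2 of 12 were over 0.1, and 6 of 24 libraries correlated best with their own number. With a replicate block, 3 members passed at 3 hr between the genotypes, and 10 of the 75 calls were lost. The SE of the genotype differences ran from 0.10 (*Pdha1*) to 0.50 (*Slc16a3*) on the log2 scale, so that a difference of a given size was more readily called in some members than in others.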

Other observations

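Of 33 further genes of glycolysis and its side branches that were tested, WNK1-deficient cells had 5 higher and 4 lower at 0 hr, 3 higher and 3 lower at 3 hr and again at 24 hr, and 2 higher and 1 lower at 48 hr, with median differences of 0.18, 0.04, 0.10 and 0.06. Of all genes tested, 22.1%, 9.18%, 12.5% and 13.1% passed at these times. *Eno2*, the neuronal enolase gene, was near 0 in controls at 0 hr (0, 2.11 and 0 normalised reads) and at 15.2, 20, 23.9 and 22.1 in WNK1-deficient libraries. At 24 hr it was at 24.7, 18.3 and 8.26 against 81.6, 107 and 74.7, and at 48 hr at 43.7, 65.2 and 62.1 against 61.4, 72.7 and 35.7. WNK1-deficient libraries were higher without overlap at 0 and 24 hr and overlapped controls at 48 hr. The change of the genotype difference from 0 to 48 hr passed (adjusted p = 0.00847), but its size depends on the pseudocount at such low counts. *Pgam2*, the muscle phosphoglycerate mutase gene, was at 316, 422 and 387 normalised reads in controls at 0 hr and at 36, 46.1, 69 and 64.9 in WNK1-deficient libraries (-2.81, SE 0.43, adjusted p = 0.00011). At 24 hr it was at 51.8, 125 and 139 against 17.8, 16.8 and 21 (-2.33, SE 0.46, adjusted p = 0.00199). The groups were apart at both times. *Galm* (galactose mutarotase) was higher in WNK1-deficient cells at 3 hr by 1.91 (SE 0.32, adjusted p = 0.000619) and *Pdp1*, which reactivates pyruvate dehydrogenase, at 48 hr by 1.06 (SE 0.22, adjusted p = 0.00335). *Tktl1*, a transketolase-like gene, rose by 5.15 in controls (SE 0.98, adjusted p = 0.000369) and 4.11 in WNK1-deficient cells (SE 0.91, adjusted p = 0.00156) at 24 hr, from 1.06 to 8.2 normalised reads at 0 hr to 89.8 to 222.

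Among 15 tested regulators of glycolytic transcription and glucose uptake, WNK1-deficient cells had 1 higher and 3 lower before injection. After it, 2 were higher at 3 hr, 3 higher and 2 lower at 24 hr, and 1 higher and 1 lower at 48 hr. Of all genes tested, 22.1% passed before injection, and 9.18%, 12.5% and 13.1% at the later times. *Txnip* and *Arrdc4*, arrestins that restrain glucose uptake, were higher at 3 hr. *Txnip* was at 8855, 5767 and 7593 normalised reads in controls and 21303, 13984 and 11978 in WNK1-deficient libraries (1.07, SE 0.21, adjusted p = 0.00243), and *Arrdc4* at 331, 206 and 195 against 864, 532 and 437 (1.30, SE 0.28, adjusted p = 0.00465). No libraries overlapped for either gene. *Egln3*, an oxygen-sensing prolyl hydroxylase, was lower at 24 hr, at 2247, 2284 and 2007 against 541, 627 and 767 (-1.77, SE 0.24, adjusted p = 5.97e-05), and *Egln1*, its relative, was higher at 0 hr by 0.52 (SE 0.12, adjusted p = 0.00518).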
